A study of Drosophila melanogaster with 4 samples.

Results

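This report concerns the genes through which larval wing disc cells build ribosomes in the nucleolus: the growth regulator Myc and 9 nucleolar factors, Nop60B, Nop56, nop5, Fib, Nopp140, Tif-IA, Ns1, pit and Surf6. Members were taken as the probe sets that the array's annotation pairs with these symbols. Of the 10 symbols, 8 were matched, by 9 probe sets out of the 13646 that carry 1 gene symbol (11981 genes). Myc itself and nop5 were not matched and are not analysed here, so the values below describe 8 nucleolar genes and not Myc.

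Wing imaginal discs, the epithelial sacs from which wings develop, were dissected from 3rd-instar Drosophila larvae kept at 25 degrees. All 4 genotypes share the yw background and 1 copy of en-Gal4, a driver active in the posterior compartment. The control has en-Gal4 alone, the PI3K genotype adds UAS-PI3K ov (an overexpression transgene), the Hdac3 RNAi genotype adds a UAS-Hdac3 RNAi transgene, and the last genotype carries both transgenes. Each genotype was read on 1 Affymetrix array. The arrays therefore mix posterior cells that express the transgenes with anterior cells that do not. The question behind the design is how Hdac3, a histone deacetylase, bears on growth driven by PI3K. The genes that the transgenes target are not analysed here, so the genotypes rest on the labels.

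Ribosomal RNA is transcribed by RNA polymerase I in the nucleolus, modified there by small nucleolar RNA particles, and folded with ribosomal proteins by a large set of assembly factors. Myc, a transcription factor that dimerises with Max, drives many genes of this machinery in Drosophila and sets the growth rate of wing disc cells. The insulin and PI3K pathway raises ribosome synthesis partly through TOR and the polymerase I factor Tif-IA.

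Values are scaled intensities: the deposited intensities after each array was scaled to the same trimmed mean. There were no replicate arrays, so no difference has a replicate error beside it and no test was run. Every log2 ratio is a difference between 2 arrays. As a guide to probe noise, probe sets of the same gene differed by a standard deviation (SD) of 0.15 to 0.24 log2 within a comparison, a value that contains no difference between animals. In whole discs, fewer cells of a type and less RNA per cell cannot be told apart.

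Markers of the wing disc were read on every array, and so were markers of other larval tissues. Of 10 wing disc markers 8 were on the annotation, and all 8 were at or above the detection floor of 26.9 on all 4 arrays. Their summed intensity was 6449 in control discs, 4985 in PI3K, 7531 in Hdac3 RNAi and 6898 in the combined genotype. Of 8 fat body markers 5 were on the annotation and all 5 were at or above the floor on every array, with sums of 3091, 12816, 6589 and 824 in the same order. Salivary gland markers (8 of 8 on the annotation, Sgs1 and ng1 under the floor throughout) summed to 670, 4190, 684 and 493, and gut markers (4 of 8) to 1392, 3934, 1178 and 189. These 3 sums were highest on the PI3K array and lowest on the array with both transgenes. Sums of muscle, myoblast, hemocyte, neuron and glia, and tracheal markers were not highest there: muscle markers had 384, 229, 374 and 317, hemocyte markers 1935, 1694, 2374 and 1733, and tracheal markers 8156, 8739, 10410 and 10876. Whether such transcripts came from carried-over tissue or from the disc was not tested. The 3' to 5' ratio on the PI3K array was 2.02 for actin (2.85 to 3.36 on the others) and 3.11 for eIF-4a (3.67 to 3.95). It was 1.92 and 5.65 for the 2 GAPDH controls (1.995 to 2.21 and 5.41 to 5.91), and 4.95 for 18S ribosomal RNA (4.77 to 4.87). The PI3K array was thus lowest for 3 of these 5 controls and highest for 1.

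The 8 nucleolar genes were strongly expressed and differed little between genotypes. All 8 were above the floor on all 4 arrays, and all lay in the upper 4 deciles of the 7301 genes measured on every array. For 7 of the 8 the highest array was less than 1.2-fold above the lowest, as it was for 51.8% of those genes. Nopp140 was the exception, at 1.35-fold. Over the 8 genes and 5 comparisons, 2 of 40 ratios reached 1.2-fold, both in Nopp140, and 0 reached 2-fold. The 5 comparisons rest on 4 arrays, so the 40 ratios are not independent. Between 10.2% and 24.1% of all genes reached 1.2-fold, depending on the comparison. Of all genes, 2-fold was reached by 1.35% with PI3K against control, 0.647% with Hdac3 RNAi against control and 0.915% with both against control. It was reached by 1.45% with both against PI3K and 0.671% with both against Hdac3 RNAi. The median log2 range over the 4 arrays was 0.18 for the 8 genes and 0.26 for all genes measured on every array. Bright genes varied less: the median range was 0.18 in the brightest decile, which holds Nop60B, Nop56, Fib and Nopp140, and 0.21 to 0.24 in the 3 deciles below it, which hold the other 4. In the brightest decile 73.3% of genes stayed under 1.2-fold, and 56.3% to 63.2% did in those 3. Nopp140, at 0.43, and Tif-IA, at 0.25, ranged more than the median of their own decile, and the other 6 less.

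**Figure D1:**
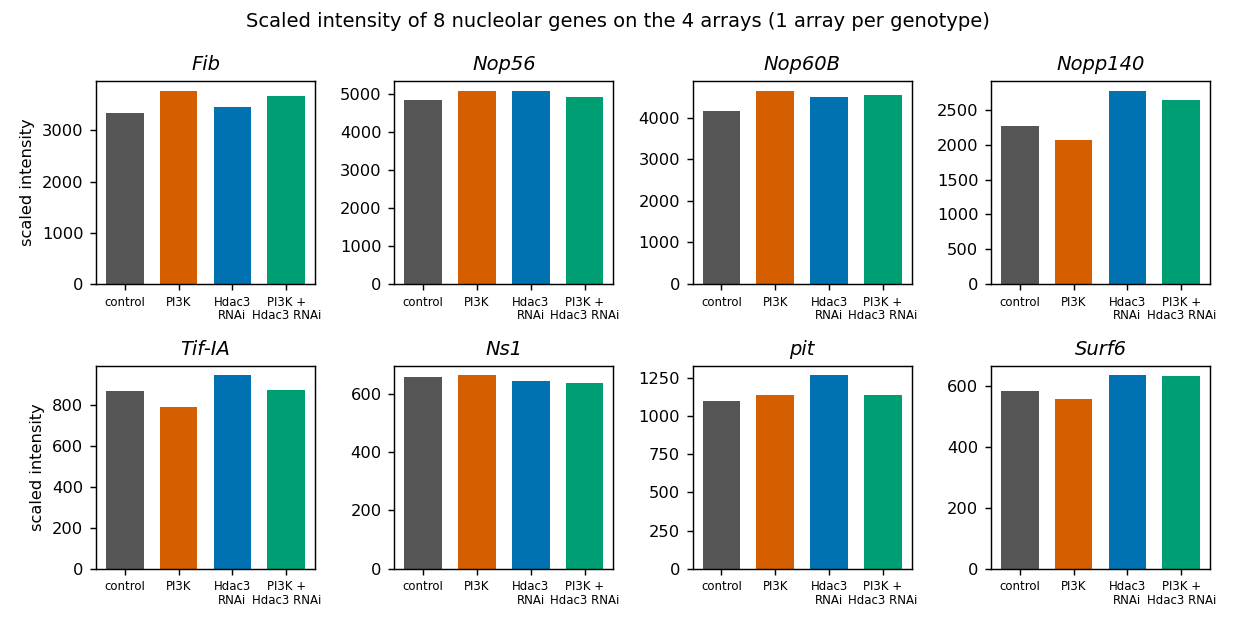
Scaled intensity (vertical axis, from 0, 1 scale per gene) of the 8 nucleolar genes on the 4 arrays, 1 bar per array with no error bar because there is 1 array per genotype. The bars of a gene are nearly level except for Nopp140, which runs from 2063 in PI3K to 2780 in Hdac3 RNAi discs.

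Among the box C/D particle proteins, Fib (fibrillarin, the methyltransferase that modifies ribosomal RNA) measured 3345 in control discs, 3776 in PI3K, 3449 in Hdac3 RNAi and 3673 in the combined genotype. Both PI3K arrays were above both arrays without PI3K. The PI3K ratio was 0.18 log2 against control and 0.09 in the Hdac3 RNAi background, 2 contrasts that share no array. Each of these ratios is below the SD between probe sets of 1 gene, which was 0.24 and 0.15 log2 for these comparisons. Nop56, a scaffold protein of the same particle, had 4831, 5075, 5070 and 4910 in the same order. It differed by at most 1.05-fold, and no genotype stood apart.

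Nop60B is the fly dyskerin, the pseudouridine synthase of the box H/ACA particle. Control discs gave 4166, PI3K discs 4649, Hdac3 RNAi discs 4498 and the combined genotype 4549. Control was the lowest array, and the 3 transgene arrays were 0.11 to 0.16 log2 above it. A dimmer probe set of the same gene had 980, 974, 940 and 1026, and placed control second highest. The 2 probe sets of Nop60B therefore disagree on the sign of the PI3K ratio against control (0.16 and -0.01) and of the Hdac3 RNAi ratio against control (0.11 and -0.06).

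Nopp140, a nucleolar phosphoprotein that accompanies small nucleolar RNA particles, showed the widest range of the 8. Control discs gave 2272, PI3K discs 2063, Hdac3 RNAi discs 2780 and the combined genotype 2647. Both arrays with Hdac3 RNAi were above both arrays without it. Hdac3 RNAi was 0.29 log2 above control (1.22-fold), higher than 94.7% of all genes in that comparison. Added to PI3K it was 0.36 log2 above PI3K alone (1.28-fold), higher than 92.2% of genes. These 2 contrasts share no array. Both ratios exceed the SD between probe sets of 1 gene, which was 0.18 and 0.24 log2 for these comparisons. That SD contains no difference between animals, and Nopp140 is the most distant of 8 genes. The sign held under all 8 other processing settings, with values of 0.27 to 0.36 and 0.35 to 0.40. The order of the arrays for Nopp140 is also that of the summed wing disc markers, and the part of the disc share in this result was not tested.

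Tif-IA, the initiation factor that brings RNA polymerase I to the ribosomal RNA genes, measured 873 in control discs, 794 in PI3K, 948 in Hdac3 RNAi and 874 in the combination. It was lower with PI3K in both backgrounds, by -0.14 log2 against control and -0.12 against Hdac3 RNAi. It was higher with Hdac3 RNAi in both, by 0.12 and 0.14 log2. Each of these 4 ratios is below the SD between probe sets of 1 gene, which was 0.24, 0.15, 0.18 and 0.24 log2 in the same order.

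Among the assembly factors, Ns1, a nucleolar GTPase needed for release of the large ribosomal subunit, had 660, 663, 644 and 637 in control, PI3K, Hdac3 RNAi and both. It was the flattest of the 8, with 1.04-fold between its highest and lowest array. The DEAD-box helicase gene pit (pitchoune), identified in flies as a Myc target, had 1102, 1142, 1269 and 1141. Only the Hdac3 RNAi array stood apart, 0.20 log2 above control. Surf6, a nucleolar protein whose budding yeast relative acts in subunit assembly, had 585, 559, 635.3 and 634.8. Both of its Hdac3 RNAi arrays were above both others, by 0.12 log2 without PI3K and 0.18 with it.

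PI3K overexpression did not come with a common shift of these genes. Against control 5 of 8 had a ratio over 1, where 55.2% of the 7802 genes measured did, and the median was 0.03 log2 against 0.02 for all genes. The sign of the members' median changed with the scaling: it was -0.002 log2 on the intensities as deposited. The ratios ran from -0.14 (Nopp140) to 0.18 (Fib). None of the 8 was at least 1.2-fold apart, a difference that 24.1% of all genes showed, and none was at least 2-fold apart, against 1.35%. In the Hdac3 RNAi background, PI3K gave 2 of 8 ratios over 1, against 56.4% of genes, with a median of -0.03 log2. There pit was lowest (-0.15) and Fib highest (0.09), and none of the 8 reached 1.2-fold, against 10.2% of genes.

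With Hdac3 RNAi alone, 7 of 8 had a ratio over 1 against control, where 43.3% of the 7730 genes measured did, and the median was 0.11 log2 against -0.03 for all genes. Ns1 was the eighth, at -0.03. In deciles 7 to 10 of intensity, which hold the 8 genes, the median of all genes was -0.03 to 0.01. Dimmer genes were lower, down to -0.10 in decile 3, and the share over 1 at like intensity was not counted. With the arrays scaled to equal medians of expressed genes instead, all 8 were over 1, and so were 56.3% of all genes. Nopp140 alone was at least 1.2-fold apart, 1 of 8, against 15.3% of genes. The members' median stayed between 0.09 and 0.17 log2 under all settings tried.

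When Hdac3 RNAi was added to PI3K, 3 of 8 had a ratio over 1 (Nopp140, Surf6 and Tif-IA), where 43.4% of genes did, and the median was -0.02 log2. Its sign depended on the scaling, with a value of 0.0002 on the intensities as deposited. Nopp140 was again the 1 of 8 at least 1.2-fold apart, against 23.6% of genes. Nopp140, Tif-IA and Surf6 were higher with Hdac3 RNAi in both backgrounds. For Tif-IA and Surf6 each of these ratios is below the SD between probe sets of 1 gene (0.18 and 0.24 log2). On the intensities as deposited and with equal medians pit was also higher in both. There its ratio with PI3K turned from -0.001 to 0.02 and 0.01. Read against their span decile Nop56 (0.05), Fib (0.06) and Ns1 (0.04) were as well, and Nop60B was with the mean over its probe sets (0.02). In the main setting Ns1 was lower with Hdac3 RNAi in both backgrounds (-0.03 and -0.06). Each of Nopp140, Tif-IA and Surf6 was lower with PI3K than without it in both backgrounds. For Surf6 the second ratio was -0.001 and turned positive (0.001 and 0.007) as deposited and under quantile normalization. Fib and Nop60B were higher with PI3K in both. For Nop60B the second ratio was only 0.02, and its dimmer probe set had -0.01 against control and 0.13 in the Hdac3 RNAi background. The share of all genes with the same sign in both backgrounds was not counted for either transgene.

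With both transgenes, 7 of 8 had a ratio over 1 against control, where 45.9% of genes did, and the median was 0.08 log2 against -0.01 for all genes. On intensities as deposited it was 6 of 8, against 41.8% of genes, and with equal medians 7 of 8 against 56.5%. In deciles 7 to 10 of intensity the median of all genes was -0.02 to 0.02. Nopp140 was highest at 0.22, followed by Fib and Nop60B (both 0.13), and Ns1 was lowest at -0.05. None of the 8 reached 1.2-fold, against 13.5% of genes. The comparisons against control share the control array, so their counts are not independent.

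Departure from additivity was taken as the log2 ratio of both transgenes to PI3K minus that of Hdac3 RNAi to control. It ran from -0.20 (pit) to 0.07 (Nopp140), with a median of -0.05. None of the 8 departed by 1.2-fold or more, against 20.7% of genes. For pit the Hdac3 RNAi array was high (1269) and the other 3 lay between 1102 and 1142.

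**Figure D2:**
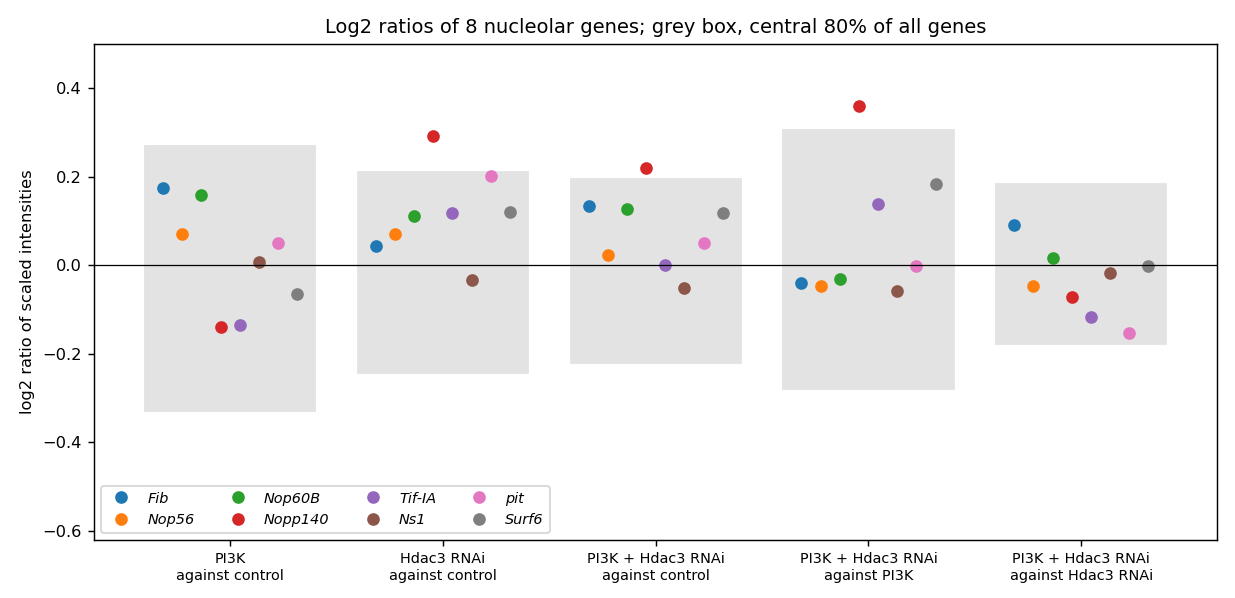
Log2 ratio of scaled intensities (vertical axis) in the 5 comparisons (horizontal axis), 1 coloured point per nucleolar gene. The grey box spans the central 80% of all genes that carry 1 symbol measured in that comparison. Nopp140 lies above the box in 3 comparisons (0.29, 0.22 and 0.36), and the other 7 genes lie within it.

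On the PI3K array longer genes had lower ratios, and the 8 genes differ in length. Gene span on the RefSeq annotation (Release 6) was 1204 bp for Surf6, 1817 for Fib, 1974 for Nop56, 2153 for Ns1, 3912 for Nopp140, 4628 for pit, 8385 for Tif-IA and 11467 for Nop60B. In PI3K against control the median log2 ratio of all genes was 0.13 in the shortest decile of spans and -0.21 in the longest. Tif-IA, at -0.14, lay next to the median of its own decile (-0.12). Nop60B, in the same decile, lay 0.28 log2 above it by its brighter probe set. The PI3K ratio of that probe set was 0.16, and that of the dimmer one -0.01. Fib lay 0.10 log2 above the median of its decile and pit 0.12 above. Surf6 lay 0.16 log2 below the median of its decile and Nopp140 0.13 below. Measured from the median of their own decile, 3 of 8 were higher with PI3K rather than 5, and 6 of 8 rather than 3 were higher with Hdac3 RNAi added to PI3K. That reading centres each decile on its own median, so about as many of all genes lie above it as below.

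**Figure D3:**
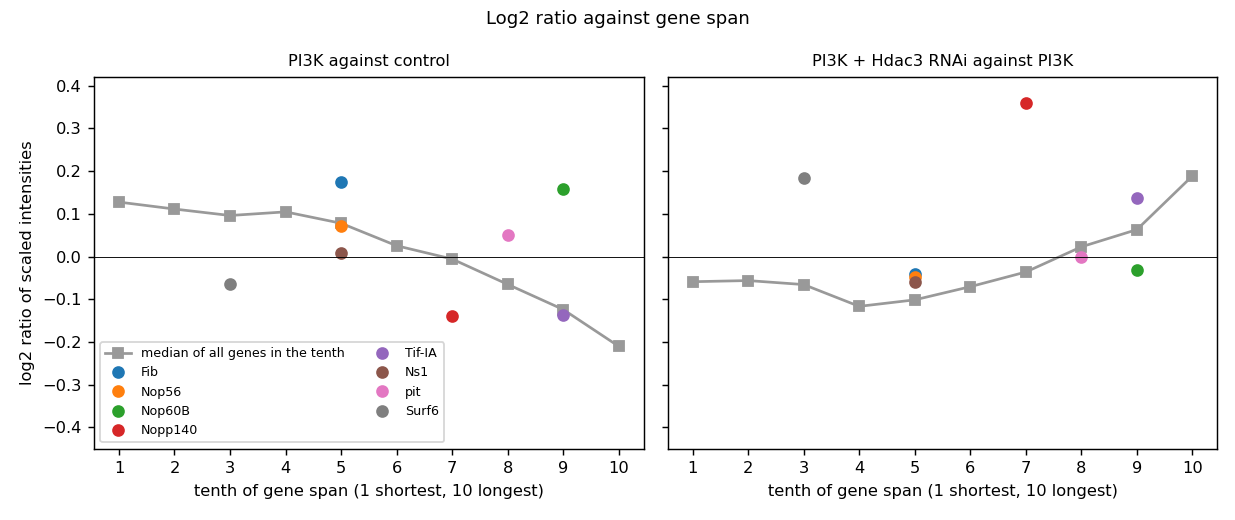
Log2 ratio (vertical axis) against the decile of gene span (horizontal axis) for PI3K against control and for both transgenes against PI3K. Grey squares are medians of all genes that carry 1 symbol in each decile and coloured points are the 8 nucleolar genes. The grey line falls from 0.13 to -0.21 in the PI3K comparison, and Nop60B, read by its brighter probe set, lies 0.28 above it.

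The rest of the assembly machinery also differed little. A list of 49 other genes was read for small nucleolar RNA particles, RNA polymerase I, and assembly of the small and large subunits, of which 45 were measured. With PI3K against control 28 of 45 had a ratio over 1, against 55.2% of all genes, with a median of 0.07 log2. At least 1.2-fold apart were 1 higher and 2 lower, against 10.6% and 13.5% of all genes. With Hdac3 RNAi alone 34 of 45 were over 1 (median 0.06), against 43.3% of genes. With both transgenes against control 36 of 45 were (median 0.09), against 45.9%. With equal medians these counts were 39 and 41, against 56.3% and 56.5% of genes. Members at least 1.2-fold higher numbered 1 and 2, against 6.68% and 6.19% of genes, and 0 were lower by as much in either comparison, against 8.67% and 7.35%.

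By role, RNA polymerase I genes had a median of 0.09 log2 with PI3K over 7 members. Polr1H, a small subunit of the enzyme, was highest: 61.98 in control discs, 80.47 in PI3K, 72.05 in Hdac3 RNAi and 80.32 in the combined genotype. It is dim, and its ratio of 0.38 was the only one of the 45 at least 1.2-fold higher with PI3K. Polr1B, the second largest subunit, was lowest at -0.13 (532 in control and 485 in PI3K). With Hdac3 RNAi added to PI3K, Polr1F was highest at 0.18 and Polr1C lowest at -0.06.

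Other proteins of small nucleolar RNA particles had a median of -0.05 with PI3K over 6 members. Gar1, a partner of dyskerin, was highest at 0.09, and CG10055 lowest at -0.30 (275 in control and 223 in PI3K). With Hdac3 RNAi added to PI3K, all 6 of these were over 1, against 43.4% of all genes, with a median of 0.16 against -0.03. CG10055 was highest at 0.26 and CG10341 lowest at 0.06. Only CG10055 exceeded the SD between probe sets of 1 gene, 0.24 log2 in this comparison. The same 6 stayed over 1 under every processing setting tried, although the mean over probe sets could not change them, since each has 1 probe set. The particle proteins among the members did not share this direction. In the same comparison Fib was at -0.04, Nop56 at -0.05 and Nop60B at -0.03, while Nopp140 was at 0.36.

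Small subunit assembly genes had a median of 0.02 with PI3K over 12 members, negative (-0.02) when read against genes of like span. The gene wcd (wicked), a nucleolar protein of the complex that processes the small subunit precursor, was highest at 0.22. Its intensities were 510.4 in control discs, 594.9 in PI3K, 443.6 in Hdac3 RNAi and 511.1 in the combination. CG4554 was lowest at -0.34 with PI3K and highest at 0.43 with Hdac3 RNAi added. Its PI3K array was low (214 against 260 to 288 on the other 3).

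Large subunit assembly genes had a median of 0.09 with PI3K over 20 members, with 15 over 1, against 55.2% of all genes. Nle, the fly Notchless gene, whose budding yeast relative Rsa4 matures the large subunit, was highest at 0.24 and CG8545 lowest at -0.18. Nle was also lowest when Hdac3 RNAi was added to PI3K, at -0.25. The helicase gene Dbp73D measured 173 in control discs, 170 in PI3K, 210.4 in Hdac3 RNAi and 216.7 in the combination. Like Nopp140, it was higher on both Hdac3 RNAi arrays, by 0.28 log2 without PI3K and 0.35 with it.

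RNA polymerase III genes, which supply transfer RNA and 5S ribosomal RNA, had a median of -0.01 with PI3K over 5 members, from -0.10 (Polr3A) to 0.06 (Brf). With Hdac3 RNAi added they ran from -0.06 (Bdp1) to 0.09 (Maf1, a repressor of the polymerase). Cytosolic ribosomal proteins had a median of 0.04 with PI3K over 33 measured members, with 28 over 1, against 55.2% of all genes. The median of that list turned to -0.06 against genes of like span, with 3 over 1, against 49.96% of genes so read. The most distant member was RpS19b, a germline-enriched duplicate: 367 in control discs, 392 in PI3K, 182 in Hdac3 RNAi and 255 in the combination, 1.01 log2 lower with Hdac3 RNAi than in control. This is 1 of 32 members at least 2-fold lower in that comparison, against 0.31% of all genes. Proteins of the mitochondrial ribosome, which is assembled outside the nucleolus, had higher values with PI3K: the median over 69 genes was 0.24 log2, with 69 over 1 against 55.2% of all genes. Against genes of like span it was 0.13 log2, with 63 over 1 against 49.96%.

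**Figure D4:**
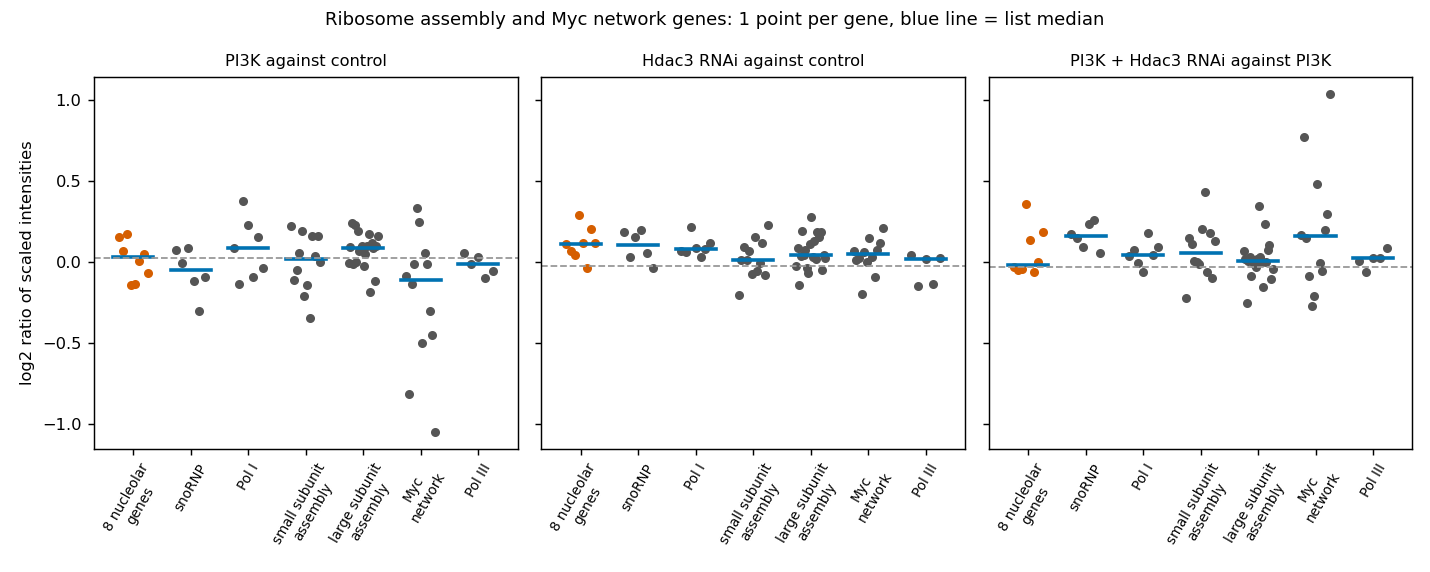
Log2 ratio (vertical axis) of each gene of 7 lists (horizontal axis) in 3 comparisons; the 8 nucleolar genes are orange, blue lines are list medians and the dashed line is the median of all genes that carry 1 symbol. Most assembly genes lie within 0.3 log2 of 0, while Myc network genes reach -1.05 with PI3K and 1.04 when Hdac3 RNAi is added.

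Several genes that act on or with Myc stood apart on the PI3K array, as did most of the wing disc markers. Of 12 measured, 5 were at least 1.2-fold lower and 1 at least 1.2-fold higher with PI3K than control, against 13.5% and 10.6% of all genes. The ones lower were mei-P26, Mnt, Kdm5, brat and puf. The list's median was -0.11 log2. Across the other settings 3 to 5 were lower by as much and 0 to 2 higher, the fewest against genes of like span. Of all 7802 genes measured, 941 to 1248 were lower by as much and 660 to 999 higher under the other scalings. The share of all genes against like span is not given here. With Hdac3 RNAi added to PI3K, 4 were at least 1.2-fold higher, against 12.1% of genes, and 1 lower, against 11.5%. With Hdac3 RNAi alone 0 of 12 were 1.2-fold apart, against 15.3% of genes. Under quantile normalization 1 was higher by as much, against 575 of 7730 genes. With both transgenes against control 0 of 12 were, against 13.5%. In these last comparisons 1 and 0 of the 8 nucleolar genes were 1.2-fold apart. Each of these comparisons shares the PI3K or the control array with the first. Apart from mei-P26 and pont, the genes of this list described here were chosen after their values were seen.

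Mnt, the repressor that competes with Myc for the partner Max, measured 170.4 in control discs, 96.9 in PI3K, 171.9 in Hdac3 RNAi and 165.4 in the combination. The PI3K array alone was low, 0.81 log2 below control (1.76-fold), while the other 3 arrays lay within 0.06 log2 of each other. The gene mei-P26, an RNA-binding growth regulator of the TRIM-NHL family reported to lower Myc in Drosophila, had 161, 77.95, 187 and 160. It was 1.05 log2 below control with PI3K (2.07-fold), the 1 gene of 12 at least 2-fold apart, against 1.35% of all genes. The related gene brat had 366, 268, 396 and 329, and was lower with PI3K in both backgrounds, by -0.45 and -0.27 log2.

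Kdm5 (lid), a histone demethylase that binds Myc, had 586, 413, 650 and 579, and puf, a ubiquitin protease that stabilises Myc, had 184, 149, 193 and 171. For both the PI3K array was lowest. Opposite to these, the ATPase cofactors pont and rept were highest on the PI3K array. The intensities of pont were 1276, 1611, 1332 and 1336, and those of rept 1338, 1591, 1341 and 1374. Max had 777, 733, 816 and 823, within 0.17 log2 throughout.

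Of the genes 1.2-fold apart with PI3K, the 5 lower ones are in the longest 2 deciles of gene span. Mnt (29872 bp), brat (45943 bp) and mei-P26 (26055 bp) are in the longest decile, whose median ratio was -0.21, and pont (1777 bp) and rept (1772 bp) in a decile with a median of 0.10. Max (1953 bp), also lowest on the PI3K array, is in a decile with a median of 0.08. From the median of the own decile, Mnt was at -0.60, mei-P26 at -0.84, Kdm5 at -0.38, brat at -0.24, puf at -0.18, pont at 0.23 and rept at 0.14. In the contrast without the PI3K and control arrays (both transgenes against Hdac3 RNAi), Mnt was at -0.06, mei-P26 at -0.22, Kdm5 at -0.17, puf at -0.18, pont at 0.004 and rept at 0.03. The lower values were not particular to this list. Of the 8 wing disc markers, all in the longest decile, 6 were at least 1.2-fold lower with PI3K than control, against 13.5% of all genes. Their median was -0.33 log2, and zfh2 was lowest at -1.10. From the median of the decile, zfh2 was at -0.89 and rn, the highest, at 0.13. The part of gene span, 3' to 5' signal, disc share and the other tissues' markers in these values was not tested.

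**Figure D5:**
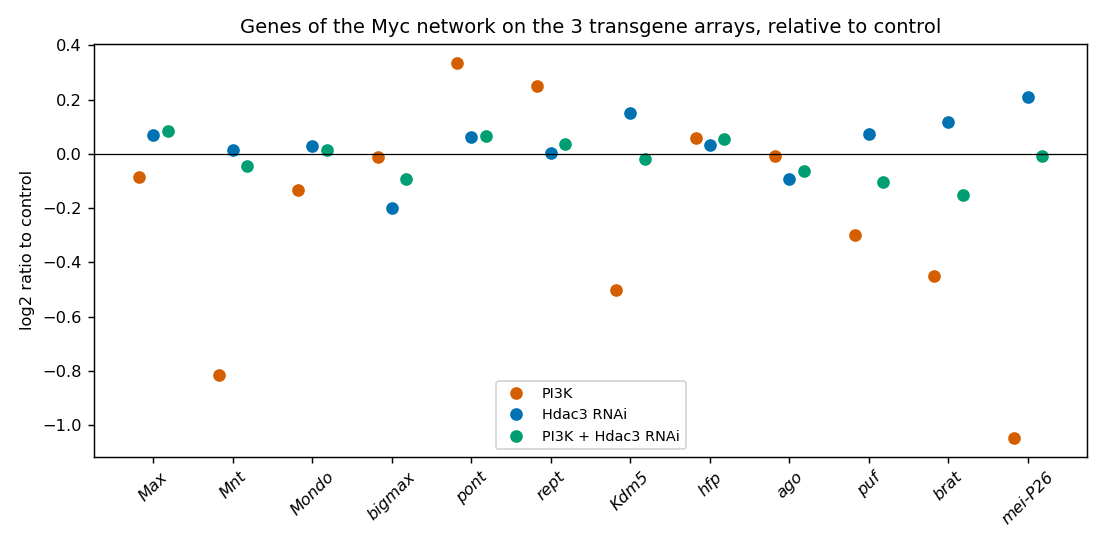
Log2 ratio to control (vertical axis) for 12 genes of the Myc network (horizontal axis) on the PI3K, Hdac3 RNAi and combined arrays, 1 point per array. The PI3K points of mei-P26 (-1.05), Mnt (-0.81), Kdm5 (-0.50) and brat (-0.45) lie below the points of the other 2 arrays, and those of pont (0.34) and rept (0.25) above.

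The genes whose pattern over the 4 arrays was most like that of Nopp140 were kra, CG15561, scrib, CG32369 and Cht7. Likeness is the root mean square distance between log2 values, each gene centred on its own mean, and it was 0.017 to 0.026 log2 for these 5 among 7301 genes. The translation regulator gene kra measured 1919 in control discs, 1688 in PI3K, 2305 in Hdac3 RNAi and 2195 in the combination. The polarity scaffold gene scrib had 1184, 1037, 1412 and 1331. Nopp140 was chosen for this search after its values were seen, because Myc was not matched, and 4 points allow many genes to look alike.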

How the data were processed

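Biotin-labelled cRNA from wing discs was hybridised to 4 Affymetrix arrays, 1 per genotype. The authors deposited intensity values on a linear scale for 18952 probe sets, made with MAS5 per the submitters' processing notes, its version and settings not given in the sources used here. Between the deposited columns the spread was 0.13 log2 in the dimmest decile of probe sets and 0.29 in decile 7. MAS5 values usually vary most in dim probe sets, so whether the deposited values are plain MAS5 output is in doubt, and with it the size of the ratios. The number of arrays limits the precision.

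The probe annotation gave 1 symbol to 13646 probe sets, several to 402 and none to 4721 (183 controls aside). Probe sets with several or none were left out. A gene took its probe set with the highest mean. Arrays were scaled to 1 common 2% trimmed mean (281 to 287 as deposited), values were raised to a floor (the 90th percentile of 125 odorant and gustatory receptor probe sets) and log2 was taken. Log2 ratios, counts and medians were computed with Python 3.11.15, numpy 2.4.6 and pandas 2.3.3, and the steps were tested on simulated data.

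A gene counts as measured where 1 array of the comparison reaches the floor. By rule the text names the members, the highest and lowest gene of each list in PI3K against control and in both transgenes against PI3K, and list genes 2-fold apart. A further rule, the genes nearest to Myc, could not be applied. Other genes of the Myc network, and those most like Nopp140, were chosen after their values were seen. The members and lists were chosen with earlier results of these data known. Alternatives were other scalings, floors, an offset of 50, the mean over probe sets, and gene span.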

Additional observations from a re-analysis of the deposited data

How the results depend on the processing

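Over 8 alternative settings, none of the 384 values for single members moved by as much as the SD between probe sets of 1 gene. This is a weak check, because most member ratios are smaller than that SD. The floor settings could move no member, and the mean over probe sets only Nop60B. Of 208 medians and counts over the members, 204 kept their value within that SD or within 1.5 times. These include medians that changed sign: -0.01 to 0.05 log2 with PI3K against control and -0.02 to 0.06 with both transgenes against PI3K. The other 4 came from reading each gene against the median of its own decile of gene span. With PI3K against control, members with a ratio over 1 then numbered 3 rather than 5. In that comparison 1 rather than 0 was at least 1.2-fold higher (Nop60B by its brighter probe set, 0.28 log2). With both transgenes against control 1 rather than 0 was (Nopp140, 0.28). With both against PI3K, 6 rather than 3 were over 1. Reading each gene against its decile's median leaves about as many of all genes over a ratio of 1 as under it. Before that reading, 10.6% of all genes were at least 1.2-fold higher with PI3K against control, and 6.19% with both transgenes against control. A sign changed in 19 of the 384 values, each at most 0.07 log2 in size as reported. The largest shift of a member was 0.05 log2 under other scalings, 0.01 under the offset, 0.14 with the mean over probe sets (Nop60B) and 0.12 with gene span. The floor changed no member, since all 8 lie above it. No paired analysis was possible because each genotype has 1 array, and for the same reason no replicate could be left out. The SD between probe sets of 1 gene was 0.15 to 0.24 log2, depending on the comparison. Differences near or below it cannot be separated from probe noise here. Larger ones may still be noise and have no replicate error beside them.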
